A study of Mus musculus with 18 samples.

Results

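Antisense and bidirectional-promoter RNAs were examined as a class in primary cultures of mouse cortical astrocytes. An antisense RNA is transcribed from the strand opposite to another gene, and a bidirectional-promoter RNA starts beside a protein-coding gene and runs away from it. Of 51912 genes in the counts table, 2665 carried 1 of these 2 biotypes, 2554 as antisense and 111 as bidirectional_promoter_lncRNA. Genes whose names start with Snhg and 3 imprinted antisense genes (Kcnq1ot1, Airn and Nespas) were set aside, which left 2660. The members are the 185 of these with a mean of at least 1 CPM over the 18 libraries, where CPM is the number of read pairs on the gene's own strand per 1000000 such pairs assigned to genes. They comprised 157 antisense and 28 bidirectional-promoter genes. Of the rest, 750 had no own-strand read pair in any library. Just inside the limit lay Gm16098 at 1.005 and Med9os at 1.001 CPM, and just outside it lay Gm14966 at 0.9999 and 4930515G01Rik at 0.9997 CPM. Members were selected on their mean level, so levels are given as a description. Most members have systematic names: 83 are named Gm with a number and 62 end in Rik, while 20 names end in os and 4 in os1, for opposite strand.

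The cultures came from cortices of newborn (PD0) mice hemizygous for the Aldh1l1-EGFP/Rpl10a transgene (founder JD130Htz, mixed B6 and FVB strain), with equal numbers of male and female brains. All groups carry this transgene, in which the promoter of the astrocyte gene Aldh1l1 drives a ribosomal protein fused to a fluorescent tag, and all were kept without serum for 24 h before exposure. Dishes then received 50 mM ethanol or control medium for 24 h. Translating ribosome affinity purification (TRAP) recovered RNA bound to tagged ribosomes (IP), and a small aliquot of the same lysate gave the input RNA. There were 6 IP control, 6 IP ethanol, 3 input control and 3 input ethanol libraries from 12 dishes, and every input library shares its dish with an IP library. Whether the dishes came from separate preparations is not given in the sources used here, so p-values measure the spread between these dishes. Own-strand pairs assigned to genes numbered 77226980 to 137983743 per library, with a median of 87471401. Of 12 astrocyte markers, 11 were at or above 1 CPM, and Gjb6 was close to 0. Their summed level was 1552 to 1631 CPM in input and 2422 to 2595 CPM in IP.

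Transcription from most mammalian promoters of protein-coding genes runs in both directions, and the outward RNA is often short, spliced poorly and turned over quickly. Where the outward RNA is stable it is annotated as a divergent or bidirectional-promoter gene. Antisense RNAs can also start inside a gene or beyond its end and overlap its exons from the other strand, so a library that keeps strand is needed to tell the 2 products apart. Some long noncoding RNAs of this kind remain in the nucleus beside the gene they came from, and others reach the cytoplasm and can be found on ribosomes.

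Coding partners were assigned from the GENCODE M21 annotation of GRCm38, the build of the counted genes. A partner is the protein-coding gene on the other strand with the largest overlap or, failing that, the nearest diverging start within 1 kb. Where a coding gene overlapped, nearer starts of other genes were not considered, and the member is counted by that overlap. A partner was found for 183 of the 185 members, and these partners were 181 different genes. In 73 pairs the starts lay within 1 kb of each other (head to head), pointing apart without overlap in 27 and overlapping in 46. Of these 73 members, 24 were of the bidirectional biotype and 49 antisense. In 46 pairs one gene lay inside the other, in 37 the ends overlapped (tail to tail), and in 27 the heads overlapped with starts over 1 kb apart. Exons of both strands overlapped in 132 pairs, but at least 50% of the member's exon bases were overlapped in only 12. The median exon length of a member was 1990 bases (range 388 to 9296), and 48 members had a single exon. Exons of another gene on the same strand overlapped those of 11 members, among them 1110002L01Rik, Zeb2os and Pax6os1, and reads there cannot be assigned to either gene.

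Of the 73 head to head pairs, 27 had starts that did not overlap, and in 23 of these the starts were at most 300 bases apart. The bases between the starts of 5 such pairs are shown because they are the DNA shared by both genes' promoters and because the members are described below. The first 3 (partners Atxn7l1, Ankrd11 and Arhgap21) differed with ethanol in both fractions, the fourth (Picalm) was lower in IP, and the fifth (Cep83) did not pass the ethanol test. Each runs 5′ to 3′ on the member's strand, from the base after the partner's start to the base before the member's start, and was read from the RefSeq GRCm38.p6 genome. Capitals mark CCAAT (NF-Y) or CACGTG (E-box) on either strand. The windows are chr12:33147598-33147692 (minus strand, 95 bases), chr8:123042278-123042465 (plus, 188 bases), chr2:20968882-20969053 (plus, 172 bases), chr7:90129985-90130212 (minus, 228 bases) and chr10:94688577-94688653 (minus, 77 bases).
F730043M19Rik: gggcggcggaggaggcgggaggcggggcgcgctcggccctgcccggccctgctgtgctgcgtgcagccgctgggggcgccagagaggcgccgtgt
2810013P06Rik: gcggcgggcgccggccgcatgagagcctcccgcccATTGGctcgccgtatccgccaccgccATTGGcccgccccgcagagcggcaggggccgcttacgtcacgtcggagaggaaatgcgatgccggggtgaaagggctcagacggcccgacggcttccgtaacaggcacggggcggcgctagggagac
Gm13375: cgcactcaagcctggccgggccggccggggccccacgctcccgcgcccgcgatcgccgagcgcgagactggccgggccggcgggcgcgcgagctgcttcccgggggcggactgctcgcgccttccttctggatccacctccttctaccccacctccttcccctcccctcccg
2310010J17Rik: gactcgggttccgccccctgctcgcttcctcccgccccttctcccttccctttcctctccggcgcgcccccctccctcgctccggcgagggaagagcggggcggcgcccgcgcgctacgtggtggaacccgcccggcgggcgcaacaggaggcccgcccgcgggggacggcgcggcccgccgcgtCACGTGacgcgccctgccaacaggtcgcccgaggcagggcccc
Cep83os: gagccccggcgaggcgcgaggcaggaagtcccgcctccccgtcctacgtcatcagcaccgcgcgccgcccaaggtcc

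Among the 22 windows read between diverging starts at most 300 bases apart (1 of the 23 pairs was not read), G and C made up a median of 71.9% of bases (range 43.1% to 83.3%). None of the 22 held TATAAA, the letters of a TATA box, and 10 held none of the 6 motifs searched on both strands, which were the E-box CACGTG, the motif of ETS factors CCGGAAG, the first letters of the NRF1 site GCGCATG, the NF-Y box CCAAT, the TATA box and most of a cyclic AMP response element, TGACGTC. The motifs do not overlap each other in the windows shown. Ankrd11 and its divergent member shared 2 CCAAT matches in the reverse direction, and Picalm and its divergent member shared 1 CACGTG. RefSeq promoter windows of 300 bases, 250 before and 50 after the start, were matched for 97 of the 185 members. Their median GC content was 65.3%, against 52.7% in 27025 windows of all genes, and it was 68.0% in the 41 head to head members with a window. CCGGAAG was in 15.5% of the members' windows against 9.12% of all windows, CACGTG in 11.3% against 7.24%, CCAAT in 39.2% against 37.9% and TGACGTC in 5.15% against 3.33%. GCGCATG was in 2.06% against 4.04%, and TATAAA in 5.15% against 14.2%, with no match in the 41 head to head windows. A match says only that these letters are present. The windows of all genes were not limited by level, as the members were. Whether the members' windows differ from those of other expressed genes was not tested.

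Strand was checked before any comparison. In 6983 coding genes with no gene across from them, 0.224% ± 0.0147 (SD, n = 18 libraries) of assigned pairs fell on the wrong strand, and the 95th percentile over genes was 1.49%. For a member, the own-strand share is the percentage of pairs in its exons that lie on its own strand, and the remainder lies on the other strand. The median share was 77.7%. It was at least 90% for 70 members, 50% to 90% for 51 and under 50% for 64, including 17 under 10%. At the mean wrong-strand rate, leakage from the other strand would account for over 10% of the own-strand pairs of 5 members (AC122273.2, Gm11175, BC037039, Gm11131 and Tomm6os), and at the rate of the 95th percentile gene for over 10% of the pairs of 20. The extreme was AC122273.2, inside the smooth-muscle actin-binding gene Tagln, with an own-strand share of 0.235%, where the mean wrong-strand rate alone equals 96.4% of its own-strand pairs. Unstranded counting, as in the deposited table of all libraries, drops pairs that touch both genes. On it the median level of the members was 1.75 CPM in place of 2.48, 48 members were under 50% of their own-strand level, and 49 were under 1 CPM.

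Members made up about 0.1% of own-strand pairs in every group: 0.102% ± 0.00100 in input control and 0.103% ± 0.00104 in input ethanol (SD, n = 3 each), and 0.0928% ± 0.00120 in IP control and 0.0918% ± 0.00133 in IP ethanol (SD, n = 6 each). Levels below are CPM scaled with TMM factors. The median member had a mean of 2.47 CPM (quartiles 1.44 and 4.35), 42 members were at or above 5 CPM, 19 at or above 10 CPM, and the 12 highest held 41.9% of the members' pairs. The 12 IP libraries ran from 74.6 to 79.8 CPM for Brip1os (ENSMUSG00000085208, chr11:86201370-86304443, plus strand), which lies across from Ints2, a subunit of the Integrator complex that processes small nuclear RNAs, and the 6 input libraries ran from 68.99 to 74.4 CPM. Ints2 is its partner by overlap only, with starts 56205 bases apart and 7.88% of the member's exon bases overlapped. The member's name refers to another gene, Brip1, which the partner rule did not choose. C130021I20Rik (ENSMUSG00000052951, chr2:33641193-33646354, plus strand), head to head with the LIM-homeobox gene Lmx1b, reached 83.3 CPM in input. AC121965.1, whose head overlaps that of the polyadenylation factor gene Cpsf2, and Gm13111, head to head with the transcriptional regulator gene Prdm16, reached 56.3 CPM in input and 50.9 CPM in IP. Per kilobase of exon the order differed. AC121965.1 was first with 39.5 CPM per kb, followed by Gm15564 with 28.5, Gm13375 with 18.3 and C130021I20Rik with 13.2, while Brip1os had 11.7.

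**Figure D1:**
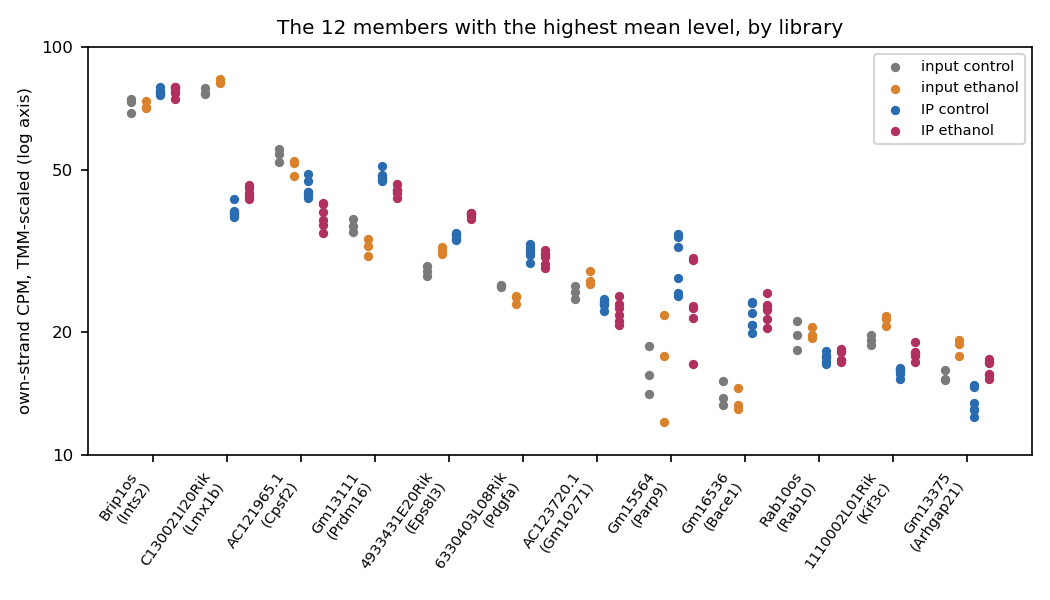
Own-strand CPM (TMM-scaled, log axis) of the 12 members with the highest mean, each point 1 library and each colour 1 group, with the coding partner in brackets. C130021I20Rik ran from 76.6 to 83.3 CPM in input and from 38.3 to 45.8 CPM in IP, and Gm15564 spread from 12.03 to 34.9 CPM.

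The first comparison, IP against input, asks how far these RNAs are recovered with tagged ribosomes. CPM are relative to each library's total, so the ratio compares a gene's share of the 2 RNA pools. The ratio of IP to input was between 0.8 and 1.25 for 110 of the 185 members (59.5%, against 55.6% of all genes tested), under 0.8 for 54 (29.2% against 27%) and over 1.25 for 21 (11.4% against 17.4%), with a median ratio of 0.897. By edgeR's quasi-likelihood test (Benjamini-Hochberg over 23718 genes, adjusted p below 0.05), 123 members were called, 37 higher and 86 lower in IP; of all genes tested, 53.0% were called, 26.1% higher and 26.9% lower. The median log2 fold change was -0.16 over the members and -0.02 over all genes tested. Values of IP and input did not overlap for 44 members, against 26.3% of all genes. Among genes of similar level the picture was close: of 1830 coding genes with a mean of 1 to 5 CPM, 439 were higher and 772 lower (median -0.09), and of 189 lincRNA genes of at least 1 CPM, 45 were higher and 87 lower (median -0.10). Of the members' coding partners, 73 of 172 were higher and 54 lower (42.4% and 31.4%, median 0.05), close to the 44.0% and 33.4% of all coding genes of at least 1 CPM (median 0.04). The rule weighs IP more than input (12 of 18 libraries), and 15 members were under 1 CPM in IP and 4 in input.

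RNAs outside the members, most of them known to be nuclear or to be degraded on ribosomes, gave a reference. They include the imprinted antisense genes set aside by name (Kcnq1ot1, Airn and Nespas) and Snhg11, annotated as protein-coding. Of 20 such genes, 14 were lower in IP and 2 higher, and their median log2 fold change was -0.94. Rpph1, the RNA of ribonuclease P, differed by -2.95 (adjusted p = 8.12e-16), the paraspeckle RNA Neat1 by -1.95 (adjusted p = 1.25e-16), Malat1 of nuclear speckles by -1.51 (adjusted p = 9.94e-08) and the small nucleolar RNA host gene Gas5 by -1.04 (adjusted p = 2.35e-21). The cytoplasmic RNA known as Norad (2900097C17Rik) was higher in IP by 0.19 (adjusted p = 1.81e-08). Not every nuclear RNA was lower: Xist, which coats the inactive X chromosome, was higher at 1.08 (adjusted p = 0.0361, SE 0.409), and the imprinted antisense RNA Airn was at 0.0050 (adjusted p = 0.973). A log2 fold change below -1 was found for 10 of the 20 and for 2 of the 185 members. Of 13468 genes of at least 1 CPM, 533 were called with a change over 2-fold in either direction. The 10 include Miat, Mirg, Rmrp and Terc at 0.0987, 0.244, 0.304 and 0.0298 CPM, under the limit that members pass. Terc was not called by edgeR (adjusted p = 0.166). Markers of other cells moved with the fraction too, in both directions. The summed level of 10 microglial genes was 77.7 to 93.9 CPM in input and 13.7 to 17.5 CPM in IP, with P2ry12 under 0.1 CPM in both. The 8 fibroblast and meningeal genes summed to 336 to 345 CPM in input and 183 to 210 CPM in IP, with Lum near 0 and Col1a2 higher in IP (0.29, adjusted p = 4.49e-10). Higher in IP were the sums of 10 oligodendrocyte-lineage genes (247.5 to 271.5 CPM in input, 362 to 406.5 in IP), 10 neuronal genes (155.6 to 166.8 CPM in input ethanol, 200.2 to 217.3 in IP ethanol) and 5 ependymal genes (349 to 371 CPM in input, 409 to 473 in IP). Whether RNA of such cells contributes to the members' differences was not tested, and in bulk RNA fewer cells of a type and less RNA per cell cannot be told apart.

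By arrangement, 11 head to head members were higher and 37 lower in IP (of 73, median -0.19), 4 tail to tail members higher and 18 lower (of 37, median -0.17), 14 inside members higher and 19 lower (of 46, median -0.04), and 8 head-overlap members higher and 11 lower (of 27, median -0.08). Of the 28 bidirectional-promoter members, 5 were higher and 17 lower, and of the 157 antisense members 32 were higher and 69 lower. Whether the arrangements differ from each other was not tested.

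**Figure D2:**
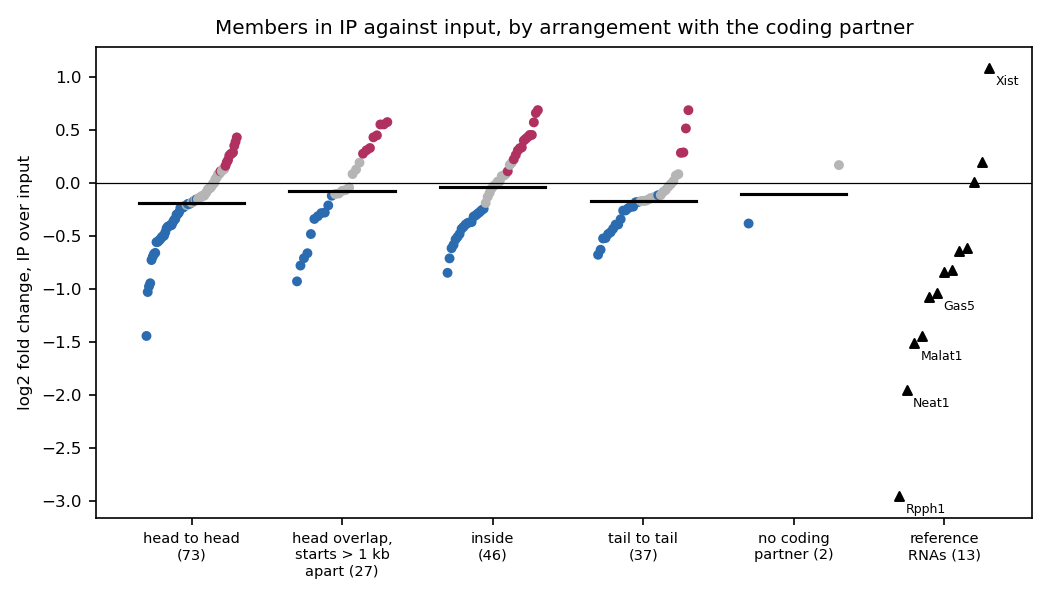
Log2 fold change of IP over input for each member, by arrangement with its coding partner (number of members in brackets), and for the 13 reference noncoding RNAs of at least 1 CPM (triangles). Points are genes, red higher and blue lower at adjusted p below 0.05, grey not called, and black lines are medians. Members spread from -1.44 to 0.69, while Neat1 and Rpph1 lie at -1.95 and -2.95.

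The 5 largest increases in IP among members whose fractions did not overlap were in Gm16536, 4833413G10Rik, 1700018L02Rik, Gm44763 and 9330121J05Rik. For Gm16536 (ENSMUSG00000089810, chr9:45856769-45858357, minus strand), a single-exon gene inside Bace1, which encodes the beta-secretase that cleaves amyloid precursor protein, the lowest, median and highest values were 12.96, 13.5 and 15.2 CPM in the 6 input libraries and 19.9, 22.4 and 24.9 CPM in the 12 IP libraries. All IP values lay above all input values, with a log2 fold change of 0.69 (adjusted p = 2.24e-17, SE 0.0421) by edgeR. Its own-strand share was 76.2%, and Bace1 itself differed by 0.21 (adjusted p = 1.20e-15). Likewise, the lowest, median and highest values of 4833413G10Rik were 2.66, 3.12 and 3.43 CPM in the 6 input libraries and 3.698, 4.96 and 5.28 CPM in the 12 IP libraries. The fractions did not overlap, and the log2 fold change was 0.66 (adjusted p = 2.35e-14, SE 0.0643). For Gm44763, inside Iqck and with an own-strand share of 99.9%, the log2 fold change was 0.57 (adjusted p = 4.51e-08, SE 0.0873). The remaining 2 had most pairs in their exons on the other strand: 1700018L02Rik across from the mitochondrial adenylate kinase gene Ak3 (own-strand share 9.72%, log2 fold change 0.57) and 9330121J05Rik across from the guanine nucleotide exchange factor gene Arhgef26 (share 12.3%, log2 fold change 0.55). At the 95th percentile wrong-strand rate, 13.99% and 10.8% of their own-strand pairs would be leakage. Gm15564, tail to tail with the ADP-ribosyltransferase family gene Parp9, had a log2 fold change of 0.69 (adjusted p = 0.00121, SE 0.155), but its values overlapped, from 12.03 to 21.99 CPM in input and from 16.7 to 34.9 CPM in IP.

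The 5 largest decreases in IP were in Gm15860, 2310010J17Rik, Gm15867, C130021I20Rik and Gm16124, and 4 of these are head to head with their partners. For Gm15860 (ENSMUSG00000087336, chr5:123332726-123344437, minus strand), head to head with the chromatin-remodelling subunit gene Bcl7a, the lowest, median and highest values were 1.81, 2.25 and 2.895 CPM in the 6 input libraries and 0.581, 0.845 and 1.17 CPM in the 12 IP libraries. The fractions did not overlap, and the log2 fold change was -1.44 (adjusted p = 2.44e-15, SE 0.116) by edgeR against -0.14 (adjusted p = 8.68e-06) for Bcl7a. For 2310010J17Rik (ENSMUSG00000097162, chr7:90124822-90129984, minus strand), which shares the E-box window shown above with the clathrin adaptor gene Picalm, the lowest, median and highest values were 4.49, 5.14 and 5.89 CPM in the 6 input libraries and 1.74, 2.63 and 2.897 CPM in the 12 IP libraries. Its log2 fold change was -1.03 (adjusted p = 1.90e-17, SE 0.0744), while Picalm differed in the other direction by 0.15 (adjusted p = 1.19e-10). In the 6 dishes with both fractions, the log2 ratio of member to partner was lower in every IP library than in any input library, with a mean difference within dishes of -1.30 ± 0.299 (SD, n = 6 dishes) for 2310010J17Rik and -1.35 ± 0.355 for Gm15860. Both were lower in 6 of 6 dishes (exact permutation p = 0.03125 each by sign changes within dishes, two-sided, unadjusted, the smallest that 6 dishes allow; 42 pairs were computed). Both members were named for non-overlapping decreases in these same libraries, so these p-values are not independent support. C130021I20Rik was lower in IP, as was its partner: the lowest, median and highest values of C130021I20Rik were 76.6, 80.5 and 83.3 CPM in the 6 input libraries and 38.3, 42.4 and 45.8 CPM in the 12 IP libraries, a log2 fold change of -0.95 (adjusted p = 1.94e-46, SE 0.0225), and Lmx1b differed by -0.998 (adjusted p = 1.80e-46). The difference in their log2 ratio was 0.05 (exact permutation p = 0.0625 within dishes). Gm15867, head to head with Sertad4, differed by -0.98 (adjusted p = 3.25e-12, SE 0.109), and Gm16124, across from the cullin gene Cul5, by -0.93 (adjusted p = 1.79e-12, SE 0.102).

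Among the highest members, Gm13111 rose with its partner, by 0.43 (adjusted p = 3.91e-24, SE 0.0255), against 0.70 (adjusted p = 1.24e-40) for Prdm16. 6330403L08Rik, a single-exon gene over the head of the growth factor gene Pdgfa, was higher in IP by 0.31 (adjusted p = 1.16e-15, SE 0.0279) while Pdgfa differed by -0.09 (adjusted p = 4.68e-05). AC121965.1 was lower, at -0.34 (adjusted p = 7.12e-09, SE 0.0361) and Cpsf2 was not called, at 0.04 (adjusted p = 0.154). Brip1os was higher by 0.11 (adjusted p = 5.80e-06, SE 0.0209). Of the other bidirectional-promoter members of high level, F730043M19Rik, which diverges from the ataxin-7-like gene Atxn7l1, was higher in IP by 0.21 (adjusted p = 5.72e-07, SE 0.0365) while Atxn7l1 was lower, at -0.23 (adjusted p = 7.95e-11). 2810013P06Rik was lower, at -0.34 (adjusted p = 4.91e-11, SE 0.04102) while its chromatin-regulator partner Ankrd11 was higher, at 0.13 (adjusted p = 0.0001402). Cep83os and the centriole gene Cep83 were both lower, at -0.21 (adjusted p = 2.20e-05) and -0.55 (adjusted p = 5.65e-22). AC123720.1 differed by -0.18 (adjusted p = 1.58e-06, SE 0.03198). E130317F20Rik, across from the splicing repressor gene Ptbp1, was at 0.11 (adjusted p = 0.0149, SE 0.0395), and its call was lost on total-count scaling (log2 fold change 0.06, adjusted p = 0.237). Over the 12 libraries from dishes that gave IP and input RNA it was lost both with the dish as a block (0.101, adjusted p = 0.0624) and without it (0.0987, adjusted p = 0.0678).

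Pairs whose partner was tested held both equal and opposite directions. Of 116 called members with a tested partner, the partner was called in 84, in the same direction for 44 pairs (16 both higher, 28 both lower) and in the opposite direction for 40, and was not called for 32. Whether or not the member was called, 127 of the 172 partners tested were called in this comparison (73.8%). Pearson's r between member and partner log2 fold changes was 0.258 and Spearman's coefficient 0.186 across 174 pairs, which come from the same libraries.

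**Figure D3:**
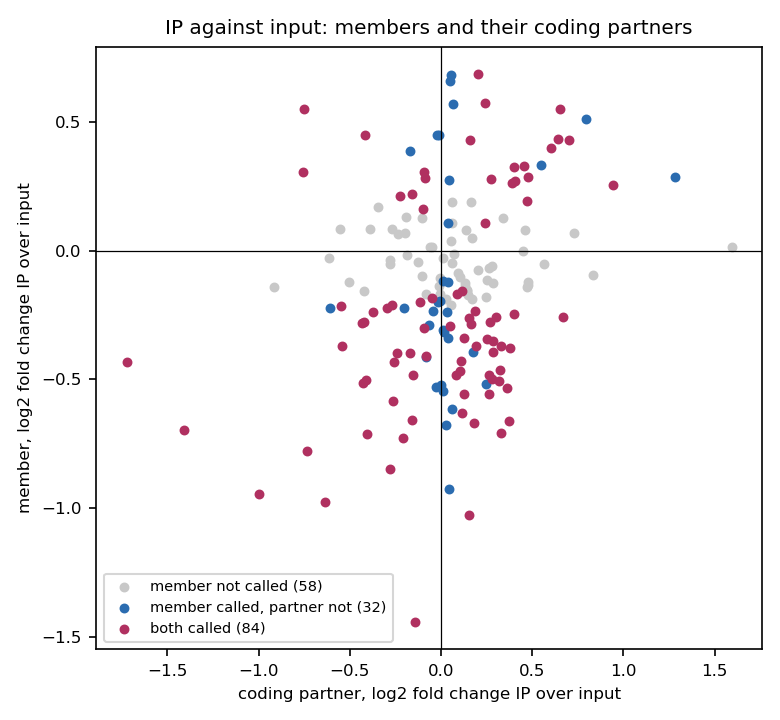
Log2 fold change of IP over input for 174 members (vertical axis) against their coding partners (horizontal axis). Each point is a pair, red where both passed adjusted p below 0.05 (84), blue where only the member did (32) and grey where the member did not (58); all 4 quadrants hold red points, 44 with equal signs and 40 with opposite signs.

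The second comparison, ethanol against control within each fraction, asks which members respond to 50 mM ethanol over 24 h. In IP, 43 of 185 members were called by edgeR's quasi-likelihood test, 16 higher and 27 lower, and 22.4% of all genes tested were called (11.6% higher, 10.8% lower). In input, 28 were called, 13 higher and 15 lower, against 16.2% of all genes (7.85% higher, 8.36% lower). The members' shares, 23.2% and 15.1%, are near this background and near those of coding genes of 1 to 5 CPM (22.95% and 12.5%), and below those of all genes of at least 1 CPM (37.2% and 27.4%). Groups did not overlap for 22 members in IP, against 10.5% of all genes, and for 61 in input, against 28.0%. Changes were small: no called member reached 1.5-fold, and the median size of a called log2 fold change was 0.29 in IP and 0.35 in input. The median over all members was -0.03 in IP and -0.0034 in input. The 28 bidirectional-promoter members had 6 calls in IP and 5 in input, all of them lower, covering 7 genes (AC121965.1, F730043M19Rik, E130317F20Rik, 2810013P06Rik, AC115037.1, E230013L22Rik and CT030173.1, the last 3 named after their values were seen). The antisense members had 16 higher and 21 lower calls in IP and 13 higher and 10 lower in input. Whether the 2 biotypes differ was not tested.

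In all, 17 members were called in both fractions, 7 higher and 10 lower in each, which is 39.5% of the IP calls and 60.7% of the input calls, and 54 were called in at least 1 fraction. Over all genes tested, 2786 were called in both, which is 52.5% of the IP calls and 72.4% of the input calls, and for coding genes of 1 to 5 CPM the shares were 35.5% and 65.1%. The input libraries share dishes with 6 of the IP libraries, so the fractions are not independent samples. Of the 17, 9 remained past the test in both fractions on leaving out any 1 library (2810402E24Rik, 4933431E20Rik, AC115037.1, F730043M19Rik, Gm13111, Gm13375, Gm16365, Gm37305 and Zmiz1os1). The summed level of 10 endothelial and mural genes also differed with ethanol. It was 1251 to 1318 CPM in input control and 867 to 929 CPM in input ethanol, and 1568 to 1698 CPM in IP control and 1015 to 1203 CPM in IP ethanol. Most of it was the smooth-muscle actin gene Acta2, which differed by -0.59 in input (adjusted p = 1.76e-155) and -0.57 in IP (adjusted p = 2.80e-08), while the endothelial Pecam1 and Cdh5 had group means of 0.296 to 0.345 and 0.0664 to 0.267 CPM. Kdr was also lower by edgeR, at -0.51 (adjusted p = 0.000494) in input and -0.40 (adjusted p = 6.71e-06) in IP. Pdgfrb, Rgs5, Flt1 and Des were not called in either fraction. Pdgfrb was at -0.02 (adjusted p = 0.636) in input and -0.03 (adjusted p = 0.510) in IP. The part of such cells or of Acta2-expressing cells in the members' changes was not tested.

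**Figure D4:**
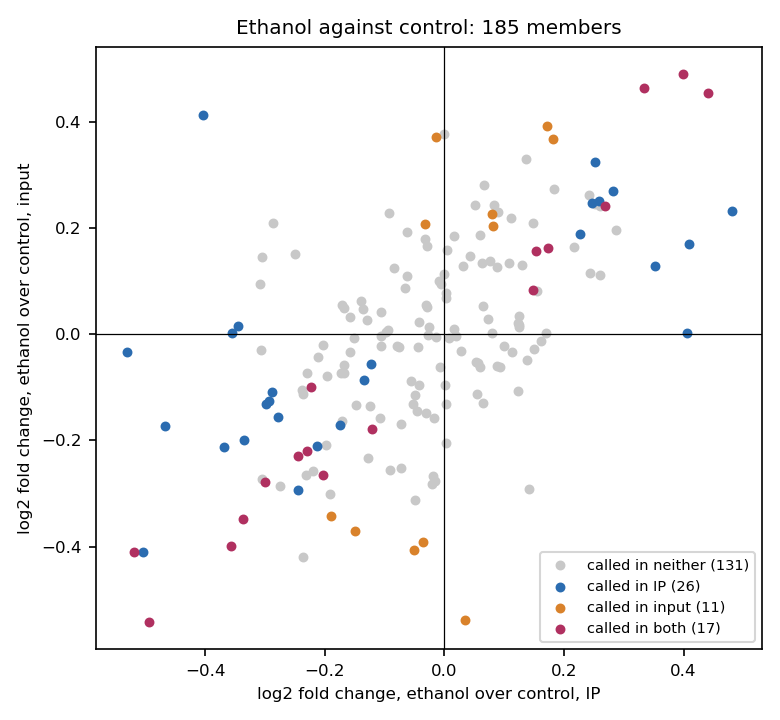
Log2 fold change of ethanol over control in input (vertical axis) against IP (horizontal axis) for the 185 members. Colours give the fraction in which adjusted p was below 0.05: 17 in both, 26 in IP, 11 in input and 131 in neither; the points called in both lie in the lower left (10) and upper right (7) quadrants.

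The members that fell most with ethanol in both fractions were 2810402E24Rik and Gm16365. 2810402E24Rik measured 5.06, 5.21 and 5.36 CPM in input control and 4.06, 3.79 and 3.95 CPM in input ethanol. In IP, the lowest, median and highest values were 3.53, 3.62 and 4.05 CPM in control and 2.38, 2.62 and 2.72 CPM in ethanol. Control and ethanol values did not overlap in either fraction, and the log2 fold change was -0.41 (adjusted p = 0.000283, SE 0.09499) in input and -0.52 (adjusted p = 2.38e-07, SE 0.0747) in IP. This single-exon antisense gene (ENSMUSG00000099966, chr14:20641009-20644048, plus strand) starts 54 bases from Usp54, a gene of the ubiquitin-specific peptidase family, and their starts overlap. Usp54 was not called, at -0.06 (adjusted p = 0.314) in input and 0.01 (adjusted p = 0.821) in IP. The log2 ratio of member to partner in IP differed by -0.52 (exact permutation p = 0.00216, two-sided, unadjusted, the smallest that 6 against 6 libraries allow). The member was named for its non-overlapping decrease in these same libraries, so this p-value is not independent support. Gm16365 measured 4.68, 4.41 and 4.58 CPM in input control and 3.18, 3.15 and 3.07 CPM in input ethanol. Across the IP libraries its minimum, median and maximum were 3.64, 4.15 and 4.49 CPM in control and 2.35, 2.97 and 3.24 CPM in ethanol. Again neither fraction overlapped, with -0.54 (adjusted p = 5.19e-06, SE 0.104) in input and -0.49 (adjusted p = 1.27e-06, SE 0.0769) in IP. Gm16365 (ENSMUSG00000086915, chr10:39558496-39613682, minus strand) is tail to tail with the Src-family kinase gene Fyn, its exons do not overlap those of Fyn, its own-strand share was 99.8%, and Fyn was not called, at 0.04 (adjusted p = 0.485) in input and 0.06 (adjusted p = 0.0688) in IP.

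Another 4 members that start beside their partners fell in both fractions. F730043M19Rik measured 13.9, 13.5 and 14.5 CPM in input control and 12.2, 12.2 and 11.3 CPM in input ethanol. Its lowest, median and highest IP values were 14.9, 16.3 and 17.3 CPM in control and 12.9, 13.6 and 15.2 CPM in ethanol. The groups did not overlap in input and overlapped in IP, and the log2 fold changes were -0.23 (adjusted p = 0.001396, SE 0.05897) in input and -0.25 (adjusted p = 1.03e-05, SE 0.0426) in IP. Atxn7l1 was also lower in input, at -0.13 (adjusted p = 0.0163), and was not called in IP, at -0.06 (adjusted p = 0.211). 2810013P06Rik measured 11.2, 11.3 and 10.4 CPM in input control and 9.74, 9.23 and 9.300 CPM in input ethanol. In IP, the lowest, median and highest values were 8.14, 8.65 and 9.14 CPM in control and 7.01, 7.33 and 8.16 CPM in ethanol. The groups did not overlap in input and overlapped in IP. It differed by -0.22 (adjusted p = 0.00799, SE 0.0657) in input and -0.23 (adjusted p = 0.000465, SE 0.0511) in IP, but the input call was lost without input control replicate 5 (adjusted p = 0.0619), and Ankrd11 was at 0.03 (adjusted p = 0.405) and 0.06 (adjusted p = 0.0923). AC115037.1 and Gm37305, which were picked out after their values were seen, share exon bases with the AP-1 family repressor gene Jdp2 and the cyclin L gene Ccnl1. AC115037.1 measured 6.498, 6.87 and 7.15 CPM in input control and 5.32, 5.46 and 5.38 CPM in input ethanol. Across the IP libraries its minimum, median and maximum were 4.28, 4.58 and 5.57 CPM in control and 3.56, 3.75 and 4.204 CPM in ethanol. The difference was -0.35 (adjusted p = 0.000487, SE 0.0834) in input and -0.34 (adjusted p = 0.000181, SE 0.0701) in IP, with no overlap in either fraction, and Jdp2 was at 0.14 (adjusted p = 0.00349) in IP and 0.07 (adjusted p = 0.2595) in input. Gm37305 measured 7.62, 7.501 and 7.12 CPM in input control and 5.85, 5.85 and 6.72 CPM in input ethanol. Its lowest, median and highest IP values were 5.33, 5.798 and 6.11 CPM in control and 4.24, 4.67 and 5.19 CPM in ethanol. The difference was -0.28 (adjusted p = 0.00543, SE 0.0799) in input and -0.30 (adjusted p = 0.000129, SE 0.0611) in IP, with no overlap in either fraction, and Ccnl1 was not called, at 0.08 (adjusted p = 0.291) and 0.16 (adjusted p = 0.0651).

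Of the highest members, Gm13111 fell by a small amount in both fractions. Gm13111 measured 35.2, 36.3 and 37.95 CPM in input control and 30.7, 32.5 and 33.8 CPM in input ethanol. In IP, the lowest, median and highest values were 46.8, 47.9 and 50.9 CPM in control and 42.6, 44.4 and 46.05 CPM in ethanol. The groups did not overlap in either, with -0.18 (adjusted p = 5.88e-05, SE 0.0381) in input and -0.12 (adjusted p = 0.00104, SE 0.0288) in IP, and Prdm16 was not called, at 0.01 (adjusted p = 0.851) and 0.06 (adjusted p = 0.0532). AC121965.1 measured 56.3, 54.8 and 52.4 CPM in input control and 48.3, 52.02 and 52.6 CPM in input ethanol. Across the IP libraries its minimum, median and maximum were 42.7, 44.02 and 48.7 CPM in control and 34.9, 38.5 and 41.4 CPM in ethanol. The groups overlapped in input and not in IP. AC121965.1 differed by -0.10 (adjusted p = 0.0146, SE 0.0319) in input and -0.22 (adjusted p = 3.94e-05, SE 0.0383) in IP, but the input call was lost without input control replicate 4 (adjusted p = 0.167), control replicate 5 (0.0626) or ethanol replicate 4 (0.307), and with DESeq2 (0.0671). E130317F20Rik was at -0.12 (adjusted p = 0.0447, SE 0.0459) in IP, a call lost without any 1 of IP control replicates 1 to 5 and IP ethanol replicates 1, 4 and 5 (adjusted p = 0.0516 to 0.131), and at -0.06 (adjusted p = 0.695, SE 0.0683) in input. Brip1os, the member of highest level, had log2 fold changes of -0.01 (adjusted p = 0.921, SE 0.0283) in input and 0.01 (adjusted p = 0.883, SE 0.0253) in IP and was not called.

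Among the 7 members that rose in both fractions, 4 were of high level. Gm13375 measured 15.4, 16.1 and 15.3 CPM in input control and 18.7, 19.1 and 17.5 CPM in input ethanol. Its lowest, median and highest IP values were 12.3, 13.2 and 14.8 CPM in control and 15.4, 16.3 and 17.2 CPM in ethanol. The groups did not overlap in either fraction, and the log2 fold changes were 0.24 (adjusted p = 8.13e-05, SE 0.0522) in input and 0.27 (adjusted p = 3.31e-06, SE 0.04395) in IP. Arhgap21, the GTPase-activating protein gene whose promoter window it shares, was at 0.04 (adjusted p = 0.2198) and 0.05 (adjusted p = 0.171). 4933431E20Rik measured 28.3, 27.4 and 29.1 CPM in input control and 31.8, 32.3 and 31.1 CPM in input ethanol. In IP, the lowest, median and highest values were 33.7, 34.6 and 34.9 CPM in control and 37.9, 38.97 and 39.2 CPM in ethanol. Again the groups did not overlap, with 0.16 (adjusted p = 0.000767, SE 0.0403) in input and 0.17 (adjusted p = 5.61e-06, SE 0.0292) in IP, and its partner Eps8l3 was nearly absent, at a mean of 0.00363 CPM in input. C130021I20Rik was 77.3, 79.4 and 76.6 CPM in input control and 83.3, 82.97 and 81.6 CPM in input ethanol, a log2 fold change of 0.08 (adjusted p = 0.0173, SE 0.0274), and 0.15 (adjusted p = 0.000143, SE 0.0304) in IP. The input call was lost without any 1 of input control replicates 4 and 6 and input ethanol replicates 4 and 5 (adjusted p = 0.0509 to 0.1298), and Lmx1b was at -0.04 (adjusted p = 0.416) and 0.08 (adjusted p = 0.06701). 1110002L01Rik, tail to tail with the kinesin gene Kif3c, differed by 0.16 (adjusted p = 0.0104, SE 0.0482) in input and 0.15 (adjusted p = 0.00157, SE 0.0379) in IP, and its input call was lost without control replicate 5 (adjusted p = 0.0846) or ethanol replicate 5 (0.0688). The IP call was lost with IP replicates 4 to 6 alone (adjusted p = 0.224). Both calls were lost on unstranded counts (0.693 in input, 0.158 in IP). Exons of Kif3c overlapped 63.4% of the member's exon bases. Kif3c was at 0.03 (adjusted p = 0.557) in input and 0.09 (adjusted p = 0.00732) in IP.

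Larger increases came from members of lower level. Zmiz1os1 measured 3.26, 2.85 and 2.55 CPM in input control and 4.29, 3.84 and 3.75 CPM in input ethanol. Across the IP libraries its minimum, median and maximum were 2.64, 2.76 and 2.84 CPM in control and 3.36, 3.81 and 3.94 CPM in ethanol. It differed by 0.45 (adjusted p = 0.000557, SE 0.1099) in input and 0.44 (adjusted p = 3.45e-06, SE 0.0724) in IP with no overlap, and the transcriptional coactivator gene Zmiz1 across from it was also higher, by 0.06 (adjusted p = 0.0469) and 0.14 (adjusted p = 0.00157). Gm14964, inside the neurexin gene Nrxn2, differed by 0.49 (adjusted p = 0.00495, SE 0.1400) in input and 0.40 (adjusted p = 0.0001395, SE 0.0815) in IP, and Nrxn2 by 0.17 (adjusted p = 5.27e-07) and 0.28 (adjusted p = 1.22e-12). Its own-strand share was 12.9%, leakage at the 95th percentile rate would be 10.2% of its pairs, and the input call was lost without input ethanol replicate 6 (adjusted p = 0.0953). Gm15559, across from the pseudouridine synthase gene Pus1, made up the 7, at 0.46 in input and 0.33 in IP, and its input call was lost without any 1 of input control replicates 5 and 6 and input ethanol replicate 4 (adjusted p = 0.0835 to 0.356), and its IP call without any 1 of IP control replicates 2 to 6 and IP ethanol replicates 1, 2, 3 and 5 (adjusted p = 0.0567 to 0.106). The 2 members that fell in both and are not described above, Gm10501 across from the heat-shock gene Hspa1l and K230015D01Rik across from the dynein gene Dync1li2, differed by -0.40 and -0.27 in input and by -0.36 and -0.20 in IP. Gm10501 lost the input call without input control replicate 5 (adjusted p = 0.186) or input ethanol replicate 6 (0.137). K230015D01Rik lost it without any 1 of input control replicates 4 and 6 and input ethanol replicates 4 and 5 (adjusted p = 0.0886 to 0.159), and lost the IP call without any 1 of IP control replicates 1, 3, 4 and 5 and IP ethanol replicates 1, 3, 4, 5 and 6 (adjusted p = 0.0517 to 0.174). The own-strand share of K230015D01Rik was 19.9%. Dync1li2 was at -0.07 (adjusted p = 0.01003) in input and -0.05 (adjusted p = 0.0989) in IP. Gm15559, Gm10501 and K230015D01Rik were named after their values were seen.

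**Figure D5:**
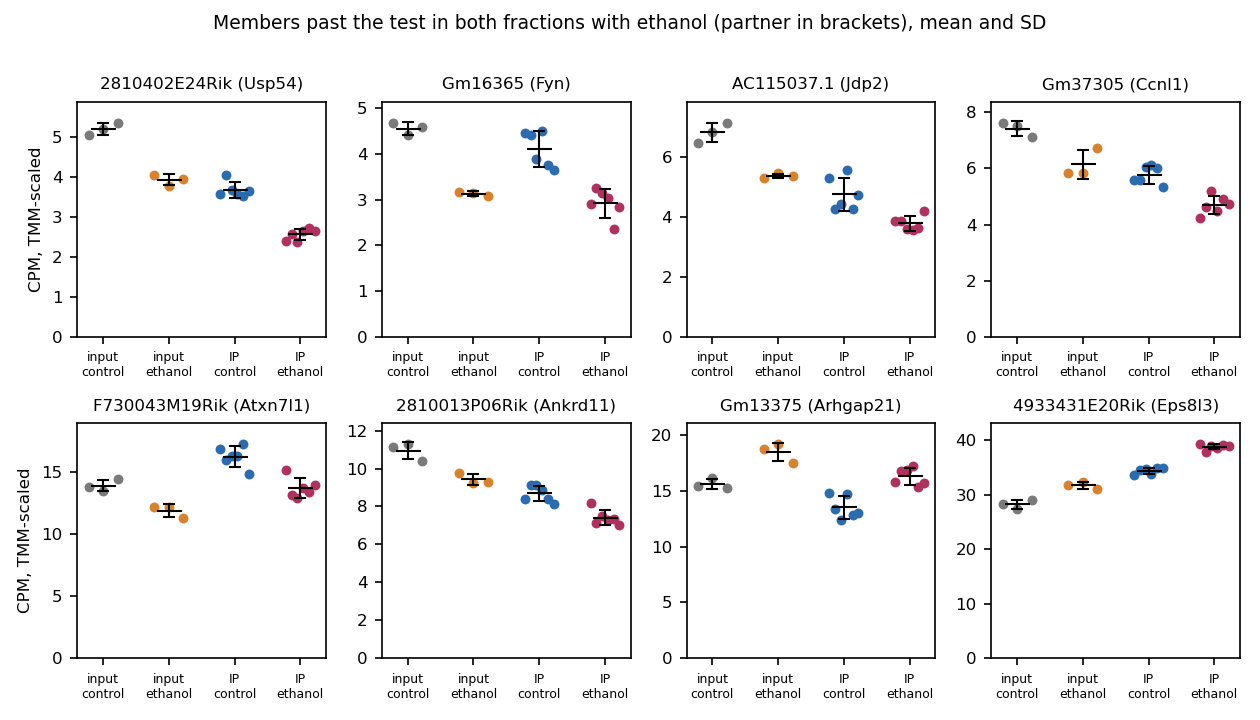
TMM-scaled own-strand CPM by library for 8 of the members called in both fractions with ethanol, with the coding partner in brackets; points are libraries and black bars the mean and SD of each group, and axes start at 0. The first 6 members are lower and the last 2 higher in ethanol in both fractions. Lower in IP than in input are 2810402E24Rik, AC115037.1, Gm37305, 2810013P06Rik and Gm13375, without overlap between fractions only for 2810013P06Rik.

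Members called in 1 fraction with the largest changes were of low level. In IP, Gm15690, inside Sds (serine dehydratase, itself near 0), had lowest, median and highest values of 2.04, 2.59 and 3.13 CPM in control and 3.21, 3.67 and 4.08 CPM in ethanol, a log2 fold change of 0.48 (adjusted p = 1.14e-05, SE 0.0841), against 0.23 (adjusted p = 0.242, SE 0.127) in input. 1700055D18Rik, head to head with the zinc-finger gene Zbtb5, had 2.68, 3.27 and 3.53 CPM in IP control and 3.56, 4.31 and 4.82 CPM in IP ethanol, a difference of 0.41 (adjusted p = 2.91e-05, SE 0.0755). Gm16796, inside the prefoldin subunit gene Pfdn4, differed by -0.50 (adjusted p = 0.000619, SE 0.115), and Pfdn4 by -0.19 (adjusted p = 0.000131). Gm44556, inside the bHLH-PAS gene Arnt2, differed by -0.53 (adjusted p = 0.00154, SE 0.131), and with an own-strand share of 4.77% up to 31.6% of its pairs would be leakage at the 95th percentile rate. In input, Gm16740 (across from Mllt11) differed by 0.39 (adjusted p = 0.00115, SE 0.0999), Gm16845 (Ecsit) by 0.37 (adjusted p = 0.0425, SE 0.137), Gm28529 (inside the histone acetyltransferase-complex gene Epc1) by -0.54 (adjusted p = 0.00876, SE 0.163) and Gm20522 (Gpank1) by -0.41 (adjusted p = 0.0435, SE 0.1502). Each of these 4 lost the call on leaving out 1 input library. For Gm16740 this was control replicate 4 (adjusted p = 0.0953), and for Gm28529 ethanol replicate 4 (0.0684) or 5 (0.0516). For Gm16845 it was any 1 of control replicates 5 and 6 and ethanol replicates 5 and 6 (adjusted p = 0.117 to 0.162), and for Gm20522 any 1 of control replicates 4 and 5 and ethanol replicates 4 and 5 (0.0571 to 0.394). On unstranded counts the input change of Gm16740 was -0.16 and that of Gm20522 0.17, the other direction.

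A call in 1 fraction is not a difference between fractions. Tested directly, as the ethanol effect in IP minus that in input, 0 members passed edgeR's quasi-likelihood test, and 0 of all genes did (percent called 0.0). At an unadjusted p under 0.05 there were 9 members and 1438 genes (6.06% of those tested), and DESeq2 called 0 members and 8 genes. The lowest adjusted p of a member was 0.669, for Med9os, which starts 64 bases from the Mediator subunit gene Med9. It measured 1.098, 0.846 and 0.871 CPM in input control and 1.16, 0.922 and 1.69 CPM in input ethanol, and 0.975, 1.04 and 1.36 CPM against 0.646, 0.817 and 1.11 CPM in IP. It overlapped between groups in both fractions. Its log2 fold change in IP, -0.40 (adjusted p = 0.0242, SE 0.137), lost the call without any 1 of IP control replicate 5 (adjusted p = 0.0924) and IP ethanol replicates 1 (0.0682) and 5 (0.0678). AC123720.1, Gm28529 and Gm17435 (across from Med26) followed, with interaction log2 fold changes of -0.17, 0.57 and 0.43.

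The ethanol calls of members and coding partners were set side by side. Of the 42 members called in IP with a tested partner, the partner was called for 14 (10 in the same direction, 4 opposite), and of the 28 called in input, for 6 (4 the same, 2 opposite). Across the 174 pairs, which come from the same libraries, Pearson's r between log2 fold changes was 0.204 in IP and -0.0045 in input. Of the 172 partners tested, 61 were called in IP and 40 in input (35.5% and 23.3%), against 38.15% and 28.25% of coding genes of at least 1 CPM.

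Of 91 names on a list of known antisense, divergent and other noncoding RNAs, which also holds microRNA host genes and 1 protein-coding gene, 54 were in the table, 25 carried 1 of the 2 biotypes and 5 were members. Of the 25, 15 were under 0.1 CPM. Zeb2os, across from the zinc-finger repressor gene Zeb2, was the highest of the 5: the lowest, median and highest values were 5.02, 5.53 and 5.71 CPM in the 6 input libraries and 3.21, 3.600 and 4.12 CPM in the 12 IP libraries. The fractions did not overlap, the log2 fold change in IP was -0.58 (adjusted p = 1.44e-14, SE 0.0563), and Zeb2 differed by -0.26 (adjusted p = 1.79e-13). With ethanol Zeb2os was at -0.09 in input and -0.04 in IP and was not called. Emx2os, head to head with the cortical patterning gene Emx2, was not called in any comparison, at 0.08 (adjusted p = 0.269, SE 0.0595) in IP against input, although Emx2 was higher in IP by 0.46 (adjusted p = 3.66e-23). A930024E05Rik, head to head with the histone demethylase gene Kdm2b, had lowest, median and highest values of 3.86, 3.96 and 4.28 CPM in IP control and 2.996, 3.27 and 3.54 CPM in IP ethanol. These did not overlap, and the ethanol log2 fold change was -0.29 (adjusted p = 0.001298, SE 0.0703) in IP and -0.11 (adjusted p = 0.591, SE 0.105) in input. Map2k3os, head to head with the kinase gene Map2k3, differed by -0.20 (adjusted p = 0.0145, SE 0.07101) in IP against input, lost without input ethanol replicate 5 (adjusted p = 0.0524) or 6 (0.0624). Pax6os1, over the head of the neural transcription factor gene Pax6, was not called in any comparison, at 0.13 (adjusted p = 0.353, SE 0.109) in IP against input.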

How the data were processed

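RNA of 18 libraries was read as paired, stranded total RNA. Per the labels, the authors used Trimmomatic, STAR and SAMtools on GRCm38/mm10 (versions not given in the sources used here) and deposited raw counts of read pairs per gene, unstranded and by strand. The members and gene lists were chosen with earlier results of these data known. Own-strand counts were tested with edgeR 4.0.16 in R 4.3.3 (TMM, robust quasi-likelihood fit, Benjamini-Hochberg below 0.05) on 23718 genes with at least 10 pairs in all. IP was compared with input, ethanol with control within each fraction, and the effects between fractions. Gene positions came from GENCODE M21 and sequences from RefSeq GRCm38.p6. The test was also run on simulated counts, and the outcome of that run is not given here. Same-dish pairing comes from the shared lysate, and deviations of IP and input from 1 dish correlated at 0.0291 to 0.175. Other shared numbers mark no shared dish. Named genes were the largest called changes without overlap, the top levels, the top bidirectional members, the lowest interaction p-values, the known list, genes at the level limit, and their partners. Alternatives were DESeq2 1.42.0, other scaling, filters, fold thresholds, unstranded counts, blocks and leaving out each library. Ratios of member to partner were tested by exact permutation, within dishes between fractions. CPM lie on the own-strand total, and depth was 77226980 to 137983743 pairs per library. The partner of 1 named member is not reported here.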

Additional observations from a re-analysis of the deposited data

Results flagged for a closer look

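In groups of 6 IP libraries, 6 of the 98 groups of named members tested held a library far from the other 5. Chance gives about 5% of groups, and over all members 14 of 370 groups (3.78%) held one. 2810402E24Rik was 4.05 CPM in IP control replicate 2, above 3.53 to 3.67 in the others. 4833413G10Rik was 3.70 CPM in IP ethanol replicate 6, below 4.76 to 5.28. C130021I20Rik was 42.4 CPM in IP control replicate 3, above 38.3 to 39.6. Gm15559 was 1.56 CPM in IP control replicate 1, above 0.9955 to 1.175. Gm44556 was 1.47 CPM in IP control replicate 1, above 1.14 to 1.248. Med9os was 1.365 CPM in IP control replicate 5, above 0.975 to 1.105.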

How the results depend on the processing

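Of 123 members called in IP against input, 110 to 133 were called under other settings, with 55 against a fold of 1.2 and 116 to 127 on leaving out 1 library. With ethanol in IP, 43 became 1 against a fold of 1.2, 22 with IP replicates 1 to 3, 31 with IP replicates 4 to 6 and 31 to 41 without 1 library. With ethanol in input, 28 became 0 against a fold of 1.2, 15 on unstranded counts and 20 to 26 without 1 library. Blocking on the dish gave 122 calls in IP against input, as did the same 12 libraries without the block. Blocking on the shared number gave 49 in IP and 31 in input; those samples share only a number. The difference of ethanol effects had 0 calls throughout. The median member level was 1.75 CPM on unstranded counts. On these counts the ethanol change in input of Gm16740 was -0.16 (0.39 own-strand) and of Gm20522 0.17 (-0.41 own-strand); the cause was not tested. Of 3087 values of named members under alternatives, 2894 kept their side of the threshold, 162 lost the call, 29 gained it and 2 reversed. Direction was compared only where the main test or the alternative called the member. Members near 1 CPM rest on few pairs, with 43 the lowest in a library. Testing the ratio of member to partner within dishes by sign changes, chosen after seeing the data, moved the IP against input calls of Gm14964 (-0.25, exact permutation p = 0.0625), Pax6os1 (-0.21, 0.156), Zmiz1os1 (-0.28, 0.03125) and Gm20522 (-0.22, 0.03125), and the first 2 were no longer past 0.05.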
